A study of Homo sapiens with 94 samples.

Results

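The genes described here are 10 regulators of the Hippo pathway: the kinases LATS1, LATS2, STK3 (MST2) and STK4 (MST1), the kinase scaffold SAV1, the tumour suppressor NF2 (merlin), the angiomotins AMOT, AMOTL1 and AMOTL2, and the LIM protein AJUBA. Their rows were found by gene symbol in a list drawn up with earlier results of these data known, and they are 10 of the 20239 genes in the table. RNA was measured in 94 subcutaneous tumors of NCI-H226, an established human malignant pleural mesothelioma line, grown in SCID mice, which lack mature B and T cells. K-975, a covalent inhibitor that blocks palmitoylation of the TEAD transcription factors, was given once at 30, 100 or 200 mg/kg, and control mice received vehicle (ethanol, Solutol and glucose) or were left untreated.

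Each of 3 studies is labelled with a time, 1 h, 3-6 h or 24 h, so time and study cannot be told apart. The labels give the time on the untreated tumors only, and it was carried to vehicle and K-975 tumors through the study code that they share. The labels show 3 untreated groups where the design text names 2. There were 19 groups of 5 tumors, apart from the vehicle group at 24 h with 4. At 3-6 h each K-975 dose and the vehicle had 2 cage groups of 5. Which of the 2 belongs to 3 h and which to 6 h is not in the labels. The dosing volume was 20 mL/kg for vehicle and 200 mg/kg and 10 mL/kg for the lower doses, so it differed between vehicle and the 30 and 100 mg/kg groups. At 1 h and 24 h each treatment was 1 cage group, and cage and treatment cannot be told apart.

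In the Hippo pathway, STK3 and STK4 bind SAV1 and activate LATS1 and LATS2, which phosphorylate the co-activators YAP1 and TAZ and keep them from the nucleus. NF2 brings LATS kinases to the membrane, angiomotins bind and retain YAP1, and AJUBA inhibits the LATS kinases. When YAP1 and TAZ enter the nucleus they bind TEAD factors and switch on target genes. LATS2, AMOTL2 and AJUBA are themselves known TEAD targets, and through LATS2 and AMOTL2 the output of the pathway restrains its own input. NCI-H226 is known to have lost NF2. The label calls the whole group negative feedback, but AJUBA acts on LATS in the opposite sense.

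GGAATG is the core of the sequence that TEAD factors bind, and it was searched on both strands (GGAATG or CATTCC) in the RefSeq promoter windows of GRCh38.p14, each with 250 bases before and 50 after a gene start. Of the 10 genes, 9 had at least 1 window, 13 windows in all, and STK3 had none. The motif stood in 3 of 13 windows (23.1%), compared with 14% of all 35116 windows, and in 3 of the 9 genes, compared with 16.7% of 27305 genes. The windows with the motif belonged to LATS2, AMOTL2 and AJUBA. They are printed because they hold the motif, 5′ to 3′ on the strand of the gene with the motif in capitals.
LATS2, chr13:21061537-21061836, minus strand: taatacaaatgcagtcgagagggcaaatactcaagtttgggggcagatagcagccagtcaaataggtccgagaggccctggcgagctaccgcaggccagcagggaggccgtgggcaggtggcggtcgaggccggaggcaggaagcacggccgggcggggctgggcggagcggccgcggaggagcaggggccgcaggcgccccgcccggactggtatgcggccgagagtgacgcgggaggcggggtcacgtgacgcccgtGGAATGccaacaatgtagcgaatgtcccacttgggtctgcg
AMOTL2, second window, chr3:134374398-134374697, minus strand: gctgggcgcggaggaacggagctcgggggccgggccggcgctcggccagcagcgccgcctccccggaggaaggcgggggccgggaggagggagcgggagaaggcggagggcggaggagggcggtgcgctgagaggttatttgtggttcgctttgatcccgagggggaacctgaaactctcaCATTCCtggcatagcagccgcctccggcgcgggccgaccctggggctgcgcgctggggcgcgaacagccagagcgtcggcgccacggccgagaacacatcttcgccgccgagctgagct
AJUBA, second window, chr14:22976793-22977092, minus strand: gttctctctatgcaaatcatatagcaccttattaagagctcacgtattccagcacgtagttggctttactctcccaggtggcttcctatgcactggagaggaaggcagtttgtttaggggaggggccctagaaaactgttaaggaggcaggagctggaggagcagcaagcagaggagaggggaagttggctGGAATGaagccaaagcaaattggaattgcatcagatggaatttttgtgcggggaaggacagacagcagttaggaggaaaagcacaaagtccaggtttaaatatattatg
In LATS2 the motif began 9 bases after the start, on the strand of the gene. In the AMOTL2 window it lay on the other strand, 69 bases before that start, and in the AJUBA window on the gene's own strand, 59 bases before. The first windows of AMOTL2 (chr3:134375368-134375667) and AJUBA (chr14:22982502-22982801) held no GGAATG. A match describes letters only, since factor binding was not measured.

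Values were FPKM (fragments scaled to transcript length and library total), and read depth itself was not given. The libraries were made with target enrichment, so an order of genes by level also holds how well each was captured, which was not measured. In 91 libraries 11344 to 11665 genes reached 1 FPKM. The other 3 held far fewer, 8531 (200 mg/kg, 1 h, replicate 1), 7196 (100 mg/kg, 24 h, replicate 5) and 702 (30 mg/kg, 24 h, replicate 1), and were left out of the values and tests below unless they are named. Mesothelial markers fitted the label of the line: all 9 had a median of at least 1 FPKM. Of the leukocyte markers reported here CD68 alone reached that median, and CD3E was at 0 in 90 of 91 libraries. Of the endothelial markers KDR and CDH5 did, and VWF and PECAM1 did not, with PECAM1 at 0 in 79 of 91 libraries. Of the fibroblast markers COL1A1 did, and DCN, LUM and PDGFRA did not. Which cells these values came from was not tested. In bulk tumors, fewer cells of a type and less RNA per cell cannot be told apart.

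AJUBA was the most abundant of the 10 genes and NF2 was all but absent. Over the 34 vehicle and untreated libraries, the FPKM was 58.1 ± 7.74 for AJUBA (SD, n = 34), and it exceeded STK4 in all 34. STK4 (29.9 ± 5.40), AMOTL2 (27.6 ± 3.81) and LATS2 (26.1 ± 5.40) followed, and their order was not stable: STK4 exceeded AMOTL2 in 22 of 34 libraries and AMOTL2 exceeded LATS2 in 21. Of the paired kinases, LATS2 was above LATS1 (16.4 ± 2.07) and STK4 above STK3 (19.8 ± 5.85) in their means. STK3 had the widest spread relative to its mean among the genes above 1 FPKM and exceeded LATS1 in 22 of 34 libraries. SAV1, the scaffold that joins the STK3 and STK4 kinases to LATS, stood at 7.68 ± 1.22 and was below LATS1 in every control library. AMOT (0.463 ± 0.266) and AMOTL1 (0.455 ± 0.701) were far below SAV1 in their means, so of the angiomotins AMOTL2 was the one with a high level.

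**Figure D1:**
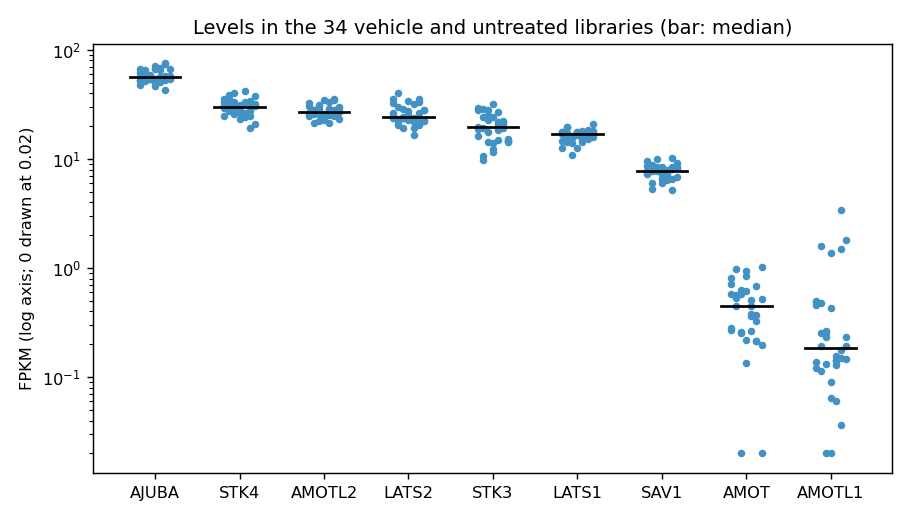
FPKM on a log axis of 9 of the 10 genes in each of the 34 vehicle and untreated libraries (points) with the median (bar), where a value of 0 is drawn at 0.02 and NF2 is left out. AJUBA lies above the other genes, STK4, AMOTL2, LATS2, STK3 and LATS1 overlap, and the medians of AMOT and AMOTL1 lie below 1 FPKM.

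The low values moved in steps, as read counts do, and the steps show how few of them lie behind the low values of 3 of the genes. Capture of these genes was not measured, so few steps need not mean little RNA. From genes below 0.3 FPKM in both libraries of a pair, a median of 426 genes per pair, the relative depth of the 91 libraries ran from 0.446 to 1.91 times the median, a 4.27-fold range. FPKM multiplied by relative depth gives steps that rise with depth, as read counts do. In these steps NF2 was at 0 in 80 of 91 libraries and at a single smallest step (0.148 FPKM at median depth) in the other 11. NF2 therefore never passed the filter of at least 1 FPKM in 4 or more libraries, and 9 of the 10 genes were tested. With at most 1 step per library, in a line known to have lost NF2, no effect of K-975 on NF2 could be read. The source of the single steps was not tested. AMOT reached 1 FPKM in 9 of 91 libraries and 18.9 steps at most. AMOTL1 reached it in 11, and its highest value of 81.1 steps was in a vehicle tumor at 1 h, whose group-mates were far lower.

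**Figure D2:**
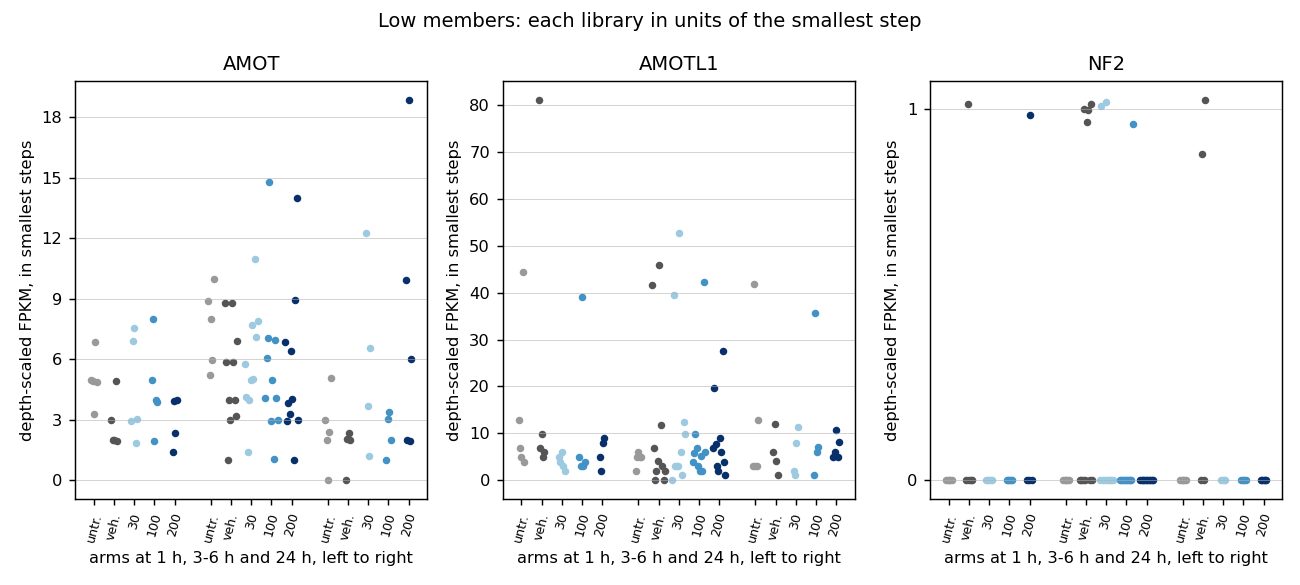
AMOT, AMOTL1 and NF2 in each of the 91 libraries (points), by treatment at 1 h, 3-6 h and 24 h, in smallest steps. A step value is FPKM multiplied by relative depth and divided by the gene's smallest step, so it rises with depth. NF2 lies at 0 or 1 step, AMOT at up to 18.9 steps, and AMOTL1 is low apart from scattered single tumors in several groups, vehicle included.

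At 1 h, none of the 9 genes tested passed the test at any dose. The FPKM of AMOTL2 was 26.0 ± 3.84 with vehicle (SD, n = 5) and 25.1 ± 0.613 at 200 mg/kg (n = 4), that of AJUBA 56.1 ± 3.68 and 53.6 ± 2.26, and that of LATS2 25.5 ± 5.37 and 25.4 ± 3.81. The ranges of vehicle and treated tumors overlapped for all 3 genes. AMOTL1 at 30 mg/kg was the exception among the members in FPKM. Its 5 tumors, 0.0638 to 0.175 FPKM, were all below the 5 vehicle tumors, 0.194 to 3.40 FPKM. The log2 fold change was -0.53 (-1.09 to 0.02, adjusted p = 1). In smallest steps the values were 1.99 to 6.00 at 30 mg/kg and 4.95 to 81.1 with vehicle, and the groups overlapped. The share of all genes without overlap in FPKM was not counted. Adjusted p-values (limma, Benjamini-Hochberg over 13036 genes, threshold 0.05) ran from 0.953 to 1. Few genes of any kind were called: 0% at 30 mg/kg, 0.00767% at 100 mg/kg, 0% at 200 mg/kg and 0% for the dose trend, although 571, 648, 435 and 439 genes had an unadjusted p under 0.05.

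At 3-6 h, the angiomotin AMOTL2 and the LATS inhibitor AJUBA fell at 100 and 200 mg/kg. Among the 13036 genes tested AMOTL2 had the smallest p-value at either dose. In the vehicle tumors the lowest, median and highest AMOTL2 values were 22.3, 27.5 and 35.6 FPKM (n = 10). They were 13.6, 19.2 and 22.5 FPKM at 100 mg/kg, and 14.0, 19.1 and 28.5 FPKM at 200 mg/kg (n = 10 each). At 100 mg/kg 9 of 10 tumors were below every vehicle tumor, and at 200 mg/kg 8 of 10 were.

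In means, AMOTL2 was 28.2 ± 4.31 FPKM with vehicle, 18.0 ± 3.14 at 100 mg/kg and 19.5 ± 4.44 at 200 mg/kg, a difference of -36.1% and -31.0%. The log2 fold change, on the log2(FPKM + 1) scale used throughout, was -0.62 at 100 mg/kg (95% interval -0.80 to -0.44, adjusted p = 2.56e-05) and -0.53 at 200 mg/kg (-0.71 to -0.35, adjusted p = 0.00177). The 2 doses share the vehicle tumors and their intervals overlap, so no order between them can be read. At 30 mg/kg AMOTL2 was 25.7 ± 4.36 FPKM, with a log2 fold change of -0.13 (-0.32 to 0.05, adjusted p = 0.802).

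AJUBA moved in the same direction from a higher level. Vehicle tumors held 46.7, 62.6 and 75.1 FPKM at the lowest, median and highest. The values were 39.1, 45.8 and 58.3 FPKM at 100 mg/kg and 34.1, 46.5 and 59.3 FPKM at 200 mg/kg. Treated and vehicle tumors overlapped more than for AMOTL2, with 5 of 10 tumors at 100 mg/kg and 6 of 10 at 200 mg/kg below every vehicle tumor. The means were 60.8 ± 9.55, 47.2 ± 6.84 and 46.9 ± 7.89 FPKM, a difference of -22.5% and -23.0%. The log2 fold change was -0.36 at 100 mg/kg (-0.49 to -0.22, adjusted p = 0.00184) and -0.37 at 200 mg/kg (-0.51 to -0.24, adjusted p = 0.00177). At 30 mg/kg AJUBA was 57.0 ± 4.85 FPKM (log2 fold change -0.08, adjusted p = 0.838).

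Thus 2 of the 9 genes tested were called at 100 mg/kg and at 200 mg/kg, and none at 30 mg/kg. Among all genes 0.43% were called at 100 mg/kg (56 genes), 0.069% at 200 mg/kg (9 genes) and 0.0153% at 30 mg/kg. LATS2 had lower values in some treated tumors only. At 200 mg/kg its lowest, median and highest values were 12.3, 17.0 and 30.5 FPKM against a vehicle mean of 24.2 ± 2.97. Of those 10 tumors 6 were below every vehicle tumor and 2 were above every one, and the log2 fold change of -0.34 (-0.59 to -0.10) had an adjusted p of 0.402. In cage group 5 LATS2 passed the test only without replicate 2 (-0.68, adjusted p = 0.0269), with -0.49 (adjusted p = 0.164) when that tumor was kept. Across the order of vehicle and the 3 doses, the change per step was -0.21 for AMOTL2 (-0.27 to -0.15, adjusted p = 4.77e-06), -0.14 for AJUBA (-0.18 to -0.10, adjusted p = 3.61e-05) and -0.11 for LATS2 (adjusted p = 0.30). AMOTL2 and AJUBA held the 2 smallest p-values of this trend, and 0.414% of all genes were called. With the 3 shallow libraries in the fit the log2 fold changes at 3-6 h stayed as given, but no member was called there (adjusted p = 1 for AMOTL2 and AJUBA at 100 and 200 mg/kg and in the trend). With all 94 libraries and array weights both were called again, AMOTL2 at -0.61 and -0.52 and AJUBA at -0.33 and -0.37 for 100 and 200 mg/kg.

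**Figure D3:**
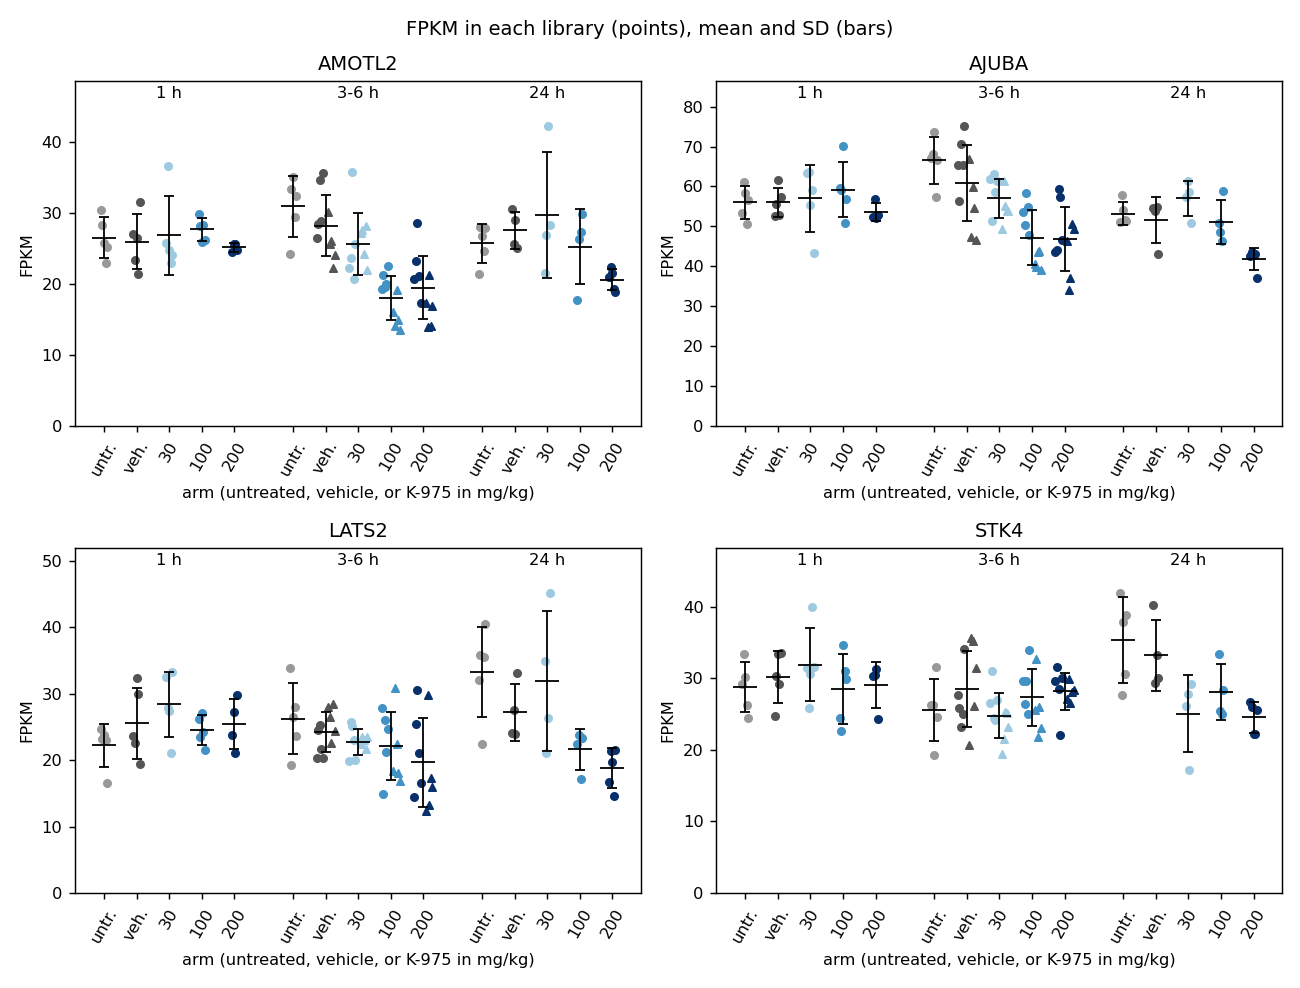
FPKM of AMOTL2, AJUBA, LATS2 and STK4 in each of the 91 libraries (points), by treatment and time, with mean and SD (bars). At 3-6 h circles are the lower-numbered and triangles the higher-numbered cage group of a treatment, and the AMOTL2 and AJUBA triangles at 100 mg/kg lie below all vehicle tumors.

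Against all 10 vehicle tumors, AMOTL2 and AJUBA passed the test in 1 cage group at 100 mg/kg and in 1 at 200 mg/kg. For AMOTL2 the cage group means at 100 mg/kg were 20.5 FPKM (cage group 6) and 15.5 (cage group 7), and at 200 mg/kg 22.2 (cage group 4) and 16.7 (cage group 5). In cage groups 5 and 7 no AMOTL2 value overlapped the vehicle tumors, and in cage group 7 no AJUBA value did. The share of all genes without such overlap was not counted. AMOTL2 was -0.82 against all vehicle tumors in cage group 7 (adjusted p = 3.14e-06) and -0.72 in cage group 5 (adjusted p = 1.2e-04). AJUBA was -0.53 in cage group 7 (adjusted p = 4.2e-05) and -0.47 in cage group 5 (adjusted p = 9.98e-04).

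In cage groups 4 and 6 both genes were lower than vehicle in their means, but neither passed the test: AMOTL2 was -0.34 and -0.43 on the log2 scale (adjusted p = 0.767 and 0.43), and AJUBA -0.27 and -0.18 (adjusted p = 0.563 and 0.934). Relative depth moved with this split: it was 1.06 to 1.70 in cage group 4 and 0.644 to 0.930 in cage group 5, and 0.776 to 1.49 in cage group 6 and 0.446 to 0.838 in cage group 7, and its part in these values was not tested. The difference between the 2 cage groups of a dose did not pass the test either. For AMOTL2 it was -0.38 at 200 mg/kg (cage group 5 minus 4, adjusted p = 0.416) and -0.39 at 100 mg/kg (7 minus 6, adjusted p = 0.372). For AJUBA it was -0.21 (adjusted p = 0.628) and -0.35 (adjusted p = 0.218). The share of all genes called was 0.00767% in cage group 4, 0.276% in 5, 0% in 6, 1.33% in 7, 0% in 8 and 0.0307% in 9, and for the differences 0.0153% (5 minus 4), 0.046% (7 minus 6) and 0% (9 minus 8). In cage groups 6 and 8, 653 and 643 genes had an unadjusted p under 0.05, as had 829 for 9 minus 8. None of the 9 genes was called in cage groups 8 and 9, at 30 mg/kg, where AMOTL2 stood at 25.6 and 25.8 FPKM.

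The running numbers in the sample titles put cage groups 2, 4, 6 and 8 in 1 run of numbers (46 to 65). Cage groups 3, 5, 7 and 9 stand in another (81 to 100), and untreated cage group 1 (41 to 45) stands with the first. No label says what these runs of numbers stand for, so a run here is a block of title numbers only. The vehicle cage groups differed in the same direction as those at 100 and 200 mg/kg. AMOTL2 was 30.8 FPKM in cage group 2 and 25.6 in cage group 3, a log2 difference of -0.25 (adjusted p = 0.509), and AJUBA was 66.6 and 55.1, a difference of -0.28 (adjusted p = 0.225). Across all genes 0.33% were called between them (43 genes), and none of the 9. In the untreated tumors of 3-6 h AMOTL2 was 30.9 ± 4.27 FPKM and AJUBA 66.5 ± 5.85 (SD, n = 5). With cage group 2 as the only control, an alternative chosen after the data were seen, AMOTL2 was -0.75 at 100 mg/kg and -0.66 at 200 mg/kg, and AJUBA -0.50 and -0.51, all past the threshold. With cage group 3 as the only control, AMOTL2 was -0.50 (adjusted p = 0.0241) and -0.40 (adjusted p = 0.113), and AJUBA -0.22 (adjusted p = 0.252) and -0.23 (adjusted p = 0.279). Of 13036 genes, 36 and 6 were called at 100 and 200 mg/kg with cage group 2 alone, and 50 and 27 with cage group 3 alone. The AJUBA calls and the AMOTL2 call at 200 mg/kg were thus lost without the vehicle tumors of cage group 2.

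Within each run, both genes were lower than vehicle in every cage group at 100 and 200 mg/kg. These comparisons were also added after the data were seen. For AMOTL2 the log2 fold change was -0.46 in cage group 4 and -0.56 in cage group 6 against vehicle cage group 2 (adjusted p = 0.536 and 0.42), and -0.60 in cage group 5 and -0.69 in cage group 7 against vehicle cage group 3 (adjusted p = 0.0167 and 0.00252). For AJUBA the values were -0.41, -0.32, -0.34 and -0.39 in cage groups 4, 6, 5 and 7, of which the last passed the test (adjusted p = 0.171, 0.789, 0.114 and 0.0275). Of 13036 genes, 1 was called in cage group 4, 0 in cage group 6, 31 in cage group 5 and 100 in cage group 7. The run with the higher numbers minus the one with the lower numbers did not pass the test for either gene. AMOTL2 was -0.13 at 100 mg/kg and at 200 mg/kg (adjusted p = 0.909 and 0.904). AJUBA was -0.07 and 0.07 (adjusted p = 0.942 and 0.939), and 0 of 13036 genes were called at either dose. The mean of the 2 within-run differences is by construction the comparison of all 10 treated with all 10 vehicle tumors given above. It is -0.62 and -0.53 for AMOTL2 and -0.36 and -0.37 for AJUBA, and it is no separate check of the pooled values.

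**Figure D4:**
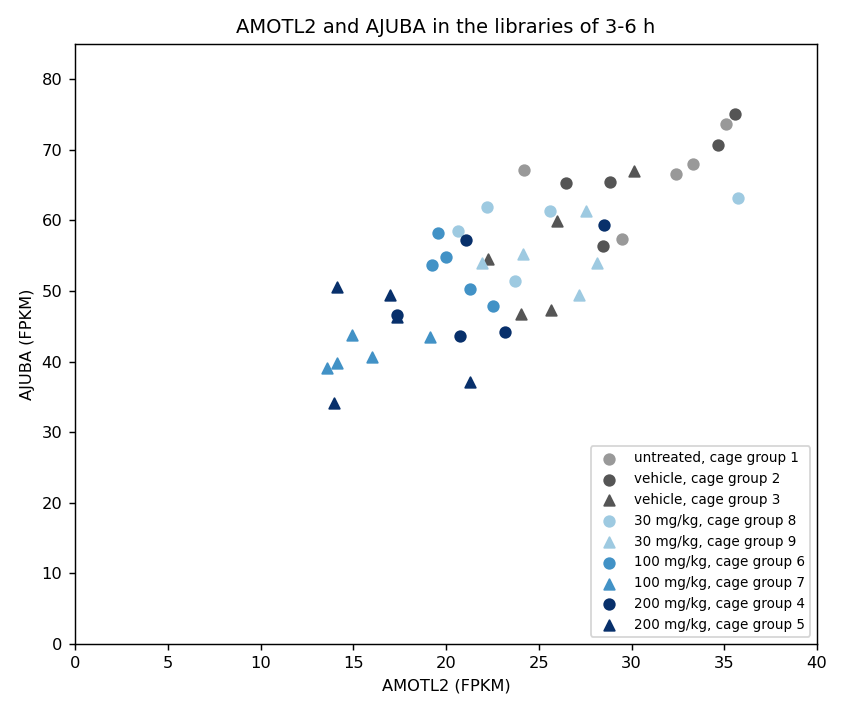
AJUBA against AMOTL2 (FPKM on both axes) in the libraries of 3-6 h, with colour for treatment and symbol for cage group. Tumors of cage group 7 (100 mg/kg) and most of cage group 5 (200 mg/kg) lie at the lower left, and vehicle cage group 3 lies between them and vehicle cage group 2.

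At 24 h and 200 mg/kg, 1 of the 9 genes tested passed the test, STK4, a count near the share of all genes called (7.41%). LATS2, AMOTL2 and AJUBA had lower values without passing the test in that comparison. STK4, the kinase at the head of the cascade, was 40.2, 29.4, 33.3 and 30.1 FPKM in the vehicle tumors and 26.7, 26.0, 22.2, 22.3 and 25.6 FPKM at 200 mg/kg. The groups did not overlap. The share of all genes without overlap at 24 h was not counted, so non-overlap here and below does not set the members apart. The log2 fold change was -0.42 (-0.69 to -0.14, adjusted p = 0.0497), so the call stood at the threshold, and it was lost in 7 of 9 fits that left out 1 library, all but those without vehicle replicate 4 or 200 mg/kg replicate 2 (log2 fold change -0.47 to -0.32, adjusted p 0.039 to 0.21). At 30 mg/kg STK4 was 25.1 ± 5.41 FPKM (SD, n = 4), also without overlap with vehicle, at -0.41 (adjusted p = 0.311). At 100 mg/kg it was 28.1 ± 3.89 (n = 4) at -0.23 (adjusted p = 0.492), so its values followed no order of dose.

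LATS2, the inducible LATS kinase, was 24.0, 27.5, 24.0 and 33.1 FPKM with vehicle and 16.7, 21.3, 19.7, 14.6 and 21.5 FPKM at 200 mg/kg. All treated tumors were below all vehicle tumors, also at 100 mg/kg (21.6 ± 3.06, n = 4). How many of all genes did so was not counted. The log2 fold change at 200 mg/kg was -0.51 (-0.88 to -0.14, adjusted p = 0.0735), the largest fall of the 9 genes in this comparison, but not a call. AMOTL2 was 30.5, 25.7, 29.0 and 25.0 FPKM with vehicle and 21.0, 22.4, 21.5, 19.3 and 18.8 FPKM at 200 mg/kg. These groups did not overlap either, at -0.40 (-0.67 to -0.13, adjusted p = 0.0583). For AJUBA, the vehicle values were 54.6, 53.8, 55.0 and 43.0 FPKM and those at 200 mg/kg 42.6, 43.7, 42.9, 43.0 and 37.2 FPKM, with a log2 fold change of -0.29 (-0.49 to -0.09, adjusted p = 0.0607). A single vehicle tumor at 43.0 FPKM made the AJUBA groups overlap.

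LATS2, AMOTL2 and AJUBA did pass the test of dose order at 24 h. The change per dose step was -0.20 for LATS2 (-0.32 to -0.09, adjusted p = 0.0213), -0.14 for AMOTL2 (-0.23 to -0.05, adjusted p = 0.033) and -0.10 for AJUBA (-0.17 to -0.04, adjusted p = 0.0339). STK4 did not (-0.11, adjusted p = 0.127). In 17 fits that left out 1 library each, the trend of LATS2 was lost in 4 (without vehicle replicates 2 or 4 or 200 mg/kg replicates 1 or 4, adjusted p up to 0.079). That of AMOTL2 was lost in 7 (without vehicle 1 or 3, 200 mg/kg 1, 4 or 5, 100 mg/kg 1 or 30 mg/kg 4, up to 0.108) and that of AJUBA in 6 (without vehicle 1, 2 or 3, 200 mg/kg 1 or 5 or 100 mg/kg 3, up to 0.109). The directions held in all 17 fits, from -0.22 to -0.17 for LATS2, -0.15 to -0.12 for AMOTL2 and -0.13 to -0.09 for AJUBA. At 30 mg/kg none of these 3 genes was lower than vehicle in its mean: LATS2 was 31.9 ± 10.5 FPKM, AMOTL2 29.7 ± 8.83 and AJUBA 57.1 ± 4.40 (n = 4). Of all genes, 7.11% were called in the trend, 7.41% at 200 mg/kg (966 genes), 1.12% at 100 mg/kg and 0.0384% at 30 mg/kg. Of the 9 members tested, 3 were called in the trend, 1 at 200 mg/kg and none at the lower doses. The median log2 fold change of the 9 genes at 200 mg/kg was -0.05 at 1 h, -0.03 at 3-6 h and -0.27 at 24 h, and that of all genes was -0.00183, 0.00805 and 0.0374.

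The untreated tumors bear on the 24 h values, since they gave a second set of controls. LATS2 was 33.2 ± 6.75 FPKM untreated (SD, n = 5), above the vehicle mean of 27.2 ± 4.32, STK4 was 35.4 ± 6.01 and 33.2 ± 4.97, AMOTL2 25.7 ± 2.76 and 27.5 ± 2.62, and AJUBA 53.2 ± 2.87 and 51.6 ± 5.75. No member was called between vehicle and untreated tumors at 1 h, 3-6 h or 24 h, and 0% of all genes were called at each time. An unadjusted p under 0.05 was seen for 616, 629 and 547 genes. With vehicle and untreated tumors as a joint control, 12.9% of all genes were called at 200 mg/kg, and 5 members were: LATS2 (-0.65, adjusted p = 0.00254), AJUBA (-0.31, adjusted p = 0.00701), AMOTL2 (-0.35, adjusted p = 0.0293), STK4 and AMOT. With vehicle as control and 1 library left out, the fit without 200 mg/kg replicate 2 called the most members. It called LATS2, AJUBA, AMOTL2, STK4 and AMOT, and 11.8% of all genes. Without vehicle replicate 4, 2 members were called, and 7.19% of all genes. Each of the other fits called 0 members, and 2.99% to 5.43% of all genes. All 5 tumors at 200 mg/kg were below all 9 controls for LATS2 and STK4, and 3 of 5 were for AMOTL2 and for AJUBA. How many of all genes lay below all 9 controls was not counted.

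At 24 h and 200 mg/kg 3 of the 9 genes had a log2 fold change above 0, and AMOT had the largest. It was 0, 0.217, 0.267 and 0.213 FPKM with vehicle and 1.03, 0.207, 1.09, 0.291 and 0.734 FPKM at 200 mg/kg. In FPKM 4 of 5 treated tumors were above every vehicle tumor. In smallest steps, which rise with depth, the values were 0, 2.03, 2.32 and 1.98 with vehicle and 9.94, 1.99, 18.9, 1.94 and 6.00 at 200 mg/kg. In steps 3 of 5 treated tumors were above every vehicle tumor. Relative depth was 1.91 in the tumor with 18.9 steps and 0.732 in the one with 1.94 steps, so steps do not compare tumors at equal depth. Of the 58 AMOT values of up to 5 steps, 45 lay within 0.15 of a whole step. Untreated tumors held up to 5.04 steps and those at 30 mg/kg up to 12.3. The log2 fold change at 200 mg/kg was 0.48 (0.12 to 0.83, adjusted p = 0.0844), not a call. Of the members, AMOT and STK3 are in the list of positive YAP1, TAZ and TEAD effectors that the study drew from other data sets. LATS2, AMOTL2 and AJUBA are not in that list. WWC1, WWC2, TEAD4, AXL, CCN1 and CCN2, named below, are in it. The AMOT level at 200 mg/kg differed from vehicle by -0.0932 FPKM at 1 h and by 0.496 at 24 h, and the test of that difference between times gave a log2 value of 0.58 (adjusted p = 0.298).

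The other members did not pass the test at any time or dose. At 24 h and 200 mg/kg, LATS1 was 15.6 ± 1.21 FPKM against 15.0 ± 1.53 with vehicle (log2 fold change 0.06, adjusted p = 0.817), STK3 16.1 ± 2.72 against 19.0 ± 5.14 (-0.20, adjusted p = 0.706) and SAV1 6.27 ± 0.225 against 7.86 ± 1.61 (-0.27, adjusted p = 0.252). The LATS1 and LATS2 kinases share a substrate, and in this comparison their log2 fold changes were 0.06 and -0.51.

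**Figure D5:**
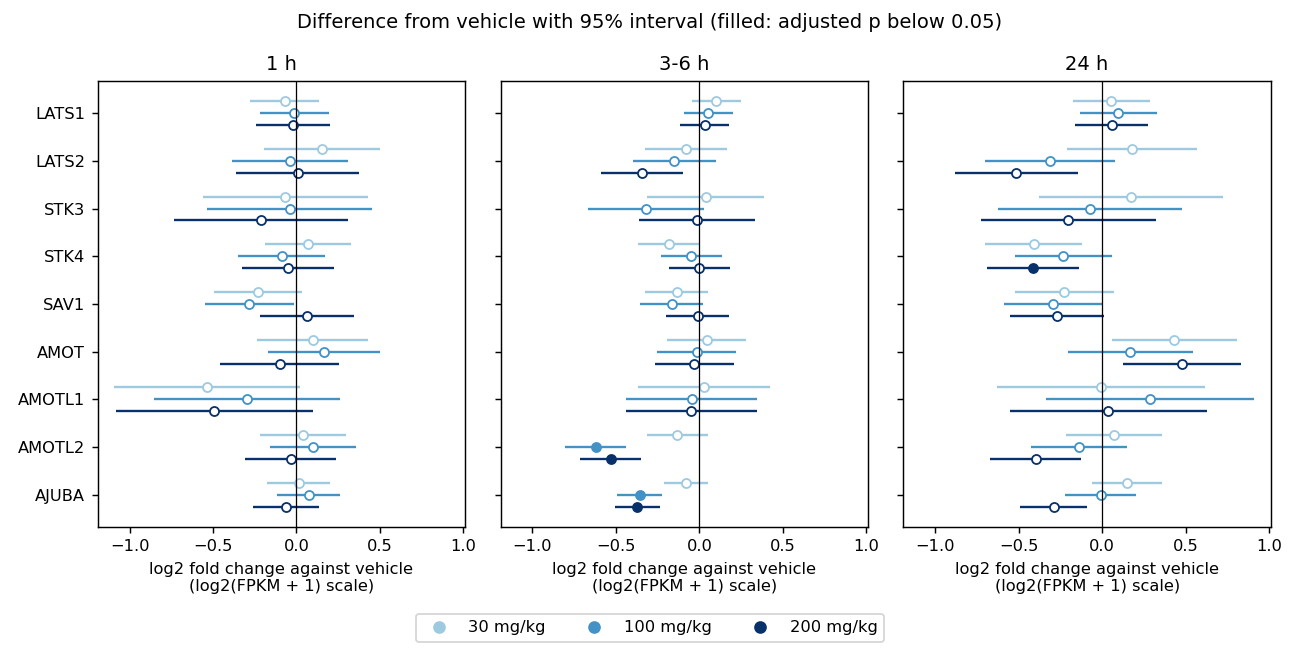
Log2 fold change against vehicle, on the log2(FPKM + 1) scale, of the 9 genes tested, with 95% intervals (lines), for 30, 100 and 200 mg/kg at 1 h, 3-6 h and 24 h. Filled points passed an adjusted p of 0.05: AMOTL2 and AJUBA at 100 and 200 mg/kg at 3-6 h and STK4 at 200 mg/kg at 24 h.

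No member's effect was shown to differ between times. At 200 mg/kg, the log2 fold change at 24 h less the one at 3-6 h was -0.42 for STK4 (-0.75 to -0.08, adjusted p = 0.18), 0.13 for AMOTL2 (-0.20 to 0.46, adjusted p = 0.758) and 0.08 for AJUBA (-0.16 to 0.32, adjusted p = 0.802). For LATS2, 24 h minus 1 h was -0.52 (adjusted p = 0.38). For AMOTL2, 3-6 h minus 1 h was -0.50 (-0.82 to -0.17) with an adjusted p of 1. Across all genes 0.583% were called for 24 h minus 1 h, 1.72% for 24 h minus 3-6 h and 0% for 3-6 h minus 1 h, the last with 604 genes at an unadjusted p under 0.05.

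Other genes of the pathway, in lists chosen with earlier results of these data known, were called at 24 h and 200 mg/kg as follows, beside 7.41% of all genes called in either direction, and the lists were not tested against each other. Of 19 TEAD targets 8 fell and none rose, and of those 8 only CCN2, CCN1 and AXL are named here. CCN2, a matricellular protein, fell by 1.44 on the log2 scale (adjusted p = 2.11e-06), the related CCN1 fell by 1.26 (adjusted p = 1.23e-05), and the receptor kinase AXL fell by 0.53 (adjusted p = 0.00186). Of 17 scaffolds and upstream regulators 4 fell and none rose: WWC1 (KIBRA), which binds NF2 and LATS, fell by 0.64 with the smallest p of all genes (adjusted p = 1.13e-08), its paralog WWC2 fell by 0.33 (adjusted p = 0.0415), RASSF1, which binds STK3 and STK4, fell by 0.60 (adjusted p = 0.0204), and FRMD6 fell by 0.50 (adjusted p = 0.0262). Of 8 effectors TEAD4 fell by 0.74 (adjusted p = 3.61e-05) and the others did not pass the test.

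Among kinases that partner or resemble the members, and in the complex that acts against them, the counts were near the share of all genes. Of 13 kinase partners STK38, an NDR kinase related to LATS, rose by 0.37 (adjusted p = 0.0328). Of 16 genes of the STRIPAK phosphatase complex, which acts against STK3 and STK4, STK25 fell by 0.25 (adjusted p = 0.0346). At 3-6 h and 200 mg/kg the calls in these lists were CCN1 (-0.72, adjusted p = 0.00223) and CCN2 (-0.63, adjusted p = 0.0338), so AMOTL2 and AJUBA stood beside these 2 targets. At 1 h none was called. Of 9 mesothelial markers 3 rose at 24 h and 200 mg/kg, CALB2 by 0.39, KRT19 by 0.32 and MSLN by 0.40. The summed FPKM of the 9 markers was 2949 to 3121 with vehicle and 3413 to 4300 at 200 mg/kg, and its part in the members' values was not tested. No leukocyte, endothelial or fibroblast marker that was tested was called.

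Over the 91 libraries the genes most like a member on the log2 scale, by Pearson's r, differed between members. These values are descriptions over libraries that share treatments. LATS2 was most like NPPB (0.59), CCN2 (0.58) and WWC1 (0.57). AMOTL2 was most like MTCL1, GNAZ and FRMPD3 (0.71 each), with AJUBA at 0.69, and AJUBA was most like PLK2 (0.71), SKP2 (0.70) and AMOTL2. STK4 was most like QSOX1 (0.73), CCL20 (0.72) and IGFBP3 (0.72).

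When each library was taken as its deviation from its group mean, which removes the treatment differences, AMOTL2 was most like TRIM29 (0.73), KRT5 (0.72) and FHDC1 (0.71), and its r with AJUBA was 0.29. AJUBA was most like ZC3H7B (0.59), ENC1 (0.59) and LMNA (0.57). The genes nearest STK4 on this scale were CCL20, QSOX1 and PSTPIP1 (0.66 each), of which CCL20 and QSOX1 were near it on the other scale too. For LATS2 no gene exceeded 0.45 (GNB1).

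In the genome build GRCh38 (GENCODE v29) the members lie on separate chromosomes apart from SAV1 and AJUBA, which are both on chromosome 14 (14:50632058-50668331 and 14:22971174-22982642, both on the minus strand). AMOTL2 is at 3:134355874-134375479 (minus), LATS2 at 13:20973032-21061547 (minus), LATS1 at 6:149658153-149718256 (minus) and STK4 at 20:44966474-45079959 (plus). NF2 is at 22:29603556-29698598 (plus), AMOT at X:112774503-112840815 (minus) and AMOTL1 at 11:94706431-94876753 (plus). STK3 is annotated at 8:98371228-98942827 (minus), and the table gives it a shorter locus, so the transcripts behind its values may differ from the annotation. All 10 are annotated as protein coding.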

How the data were processed

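RNA from 94 tumors was sequenced paired-end after target enrichment. The authors deposited 1 table of FPKM values per gene. The submitters' processing notes name STAR and GRCh38, and the quantifier, annotation and treatment of mouse reads are not given in the sources used here. Mouse RNA mapped to human genes could alter low values, and enrichment makes a gene's level depend on its capture. Groups came from the labels, and times through the study code shared with the untreated tumors. Absolute read depth is unknown, and relative depth was estimated from low-value steps. Of 20555 entries, 316 repeated entries of a gene ID (all-0 SAV1 included) were left out. Log2(FPKM + 1) of 13036 genes (at least 1 FPKM in 4 libraries) was fitted with limma 3.58.1 (R 4.3.3, intensity trend and robust variance, 1 coefficient per group) over 91 libraries, leaving out 3 with under 10000 genes at 1 FPKM, with Benjamini-Hochberg adjustment over all genes. The dose trend used the order vehicle, 30, 100, 200 mg/kg. Tests were tested on simulated data.

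The members and gene lists were chosen with earlier results of these data known. All 10 members were named. Genes of other lists were named where they passed the test at 200 mg/kg, except that only some of the TEAD targets that passed are named. The most similar genes were named by the 3 highest r. Nothing in the labels says that tumors shared an animal, so each was taken as a separate replicate. Alternatives were all 94 libraries (with and without array weights), another pseudocount (0.1), no filter, upper quartile or quantile scaling, groups compared only, other controls, dose linear in mg/kg, and leaving out each library. One leukocyte marker is not reported here. Other tools were Python 3.11.15, pandas 2.3.3, numpy 2.4.6, statmod 1.5.0 and matplotlib 3.10.9.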

Additional observations from a re-analysis of the deposited data

Results flagged for a closer look

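In groups of 4 or 5 tumors a highest or lowest value was set apart where its gap to the next value exceeded Dixon's 95% limit, which chance does in about 1 of 20 groups. It did so in 21 of 171 tests of a member in a group. AMOTL1, at low FPKM, gave 11 of them: 3.40 (vehicle, 1 h, replicate 1), 1.58 (100 mg/kg, 1 h, replicate 3), 1.51 (untreated, 24 h, replicate 2), 1.65 (100 mg/kg, 24 h, replicate 2) and, at 3-6 h, 1.58 and 1.82 (vehicle cage groups 2 and 3, replicate 1 of each), 0.285 (cage group 6, replicate 3), 1.98 (cage group 7, replicate 4), 1.26 (cage group 5, replicate 3), 1.39 (cage group 8, replicate 2) and 1.81 (cage group 9, replicate 1). These AMOTL1 values lay in every treatment, vehicle and untreated included.

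At 1 h single tumors stood apart for LATS2 (16.6 FPKM, untreated, replicate 5), STK4 (24.3, 200 mg/kg, replicate 5), AMOTL2 (36.6, 30 mg/kg, replicate 2) and AJUBA (56.9, 200 mg/kg, replicate 3). At 3-6 h they were LATS1 (11.0, vehicle cage group 3, replicate 4), LATS2 (29.8, 200 mg/kg cage group 5, replicate 2) and AMOT (1.09, 100 mg/kg cage group 6, replicate 4). At 24 h they were STK3 (27.1, 30 mg/kg, replicate 4) and AJUBA (43.0 in vehicle replicate 4 and 37.2 in 200 mg/kg replicate 5). The LATS2 value of 29.8 FPKM is a tumor above every vehicle tumor in a cage group whose other 4 tumors were below all of them.

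The number of genes at 1 FPKM or more set apart 4 libraries in 19 groups, 8531, 7196 and 702 in the shallow ones and 11587 in cage group 9, replicate 3. AMOT moved in opposite directions at 200 mg/kg: all tumors were on 1 side of the vehicle mean at 1 h and on the other at 24 h in 1 of 81 pairs of effects compared, with a difference of -0.0932 FPKM at 1 h and 0.496 at 24 h. The model's test of this difference gave an adjusted p of 0.298.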

How the results depend on the processing

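AMOTL2 and AJUBA at 3-6 h kept their direction in all 11 alternatives at both doses. Past the threshold were 10 (100 mg/kg) and 8 (200 mg/kg) for AMOTL2, and 9 and 8 for AJUBA. In every fit that left out 1 library both stayed called. STK4 at 24 h was called in 6 of 9 alternatives. No paired analysis was possible because replicate numbers only name the tumors of a group in accession order. Low values limit what can be read for NF2, AMOT and AMOTL1. The alternative controls of cage group 2 or 3 alone were chosen after the data were seen.

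The number of members called moved as follows. With all 94 libraries it was 0 for 100 and 200 mg/kg at 3-6 h, 200 mg/kg at 24 h, both trends and cage groups 5 and 7, and 2 for 30 mg/kg at 24 h, where 22.7% of all genes were called. With array weights it was 5 for 200 mg/kg at 24 h, 5 for the 24 h trend and 1 for 24 h minus 3-6 h, with 15.1%, 13.6% and 6.88% of all genes called. For 200 mg/kg at 24 h it was 2 with a pseudocount of 0.1 (7.39% of all genes), 0 without a filter (5%), 5 with the joint control (12.9%) and 3 with untreated tumors as control (8.31%), which also gave 1 for 24 h minus 1 h (2.15%) and 1 for 24 h minus 3-6 h (0.959%). With the groups compared only, it was 0 for 200 mg/kg at 3-6 h (AMOTL2 adjusted p = 0.0643, AJUBA 0.289), 0 for 200 mg/kg at 24 h (2.11% of all genes), 0 for the 24 h trend (3.05%) and 1 for cage group 5 (0.0153%). With vehicle cage group 3 alone it was 1 for 100 mg/kg (0.384%), 0 for 200 mg/kg (0.207%), 1 for the trend (0.222%) and 1 for cage group 5 (0.238%). Leaving out 1 library gave 0 to 5 for 200 mg/kg at 24 h (2.99% to 11.8% of all genes), 0 to 3 for the 24 h trend and 2 to 3 for cage group 5. The cause was not tested.

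Directions that turned, as log2 values at 200 mg/kg unless named, were those of genes not called in the comparison, apart from AJUBA in the 24 h trend. With all 94 libraries they were LATS1 0.0303, LATS2 -0.18, AMOT 0.12 and SAV1 -0.00858 at 1 h and AJUBA 0.0152 in the 24 h trend. Array weights gave STK3 0.0620 at 3-6 h, a pseudocount of 0.1 AMOTL1 0.12 and STK4 0.000218 at 3-6 h, and quantile normalization AMOTL1 -0.10 at 24 h. Untreated controls gave STK4 0.0173 at 1 h, LATS1 -0.0443, AMOTL1 0.20, SAV1 0.0113, STK3 0.0660 and STK4 0.14 (0.0972 at 100 mg/kg) at 3-6 h, and LATS1 -0.0277 and AMOTL1 -0.19 at 24 h. The joint control gave AMOTL1 0.0358, STK3 0.0121 and STK4 0.0481 (0.00042 at 100 mg/kg) at 3-6 h and AMOTL1 -0.0781 at 24 h. Vehicle cage group 2 alone gave AMOT 0.0890, SAV1 0.0446, STK3 0.19 and STK4 0.0578 (0.0101 at 100 mg/kg, 0.0539 in cage group 5), and cage group 3 alone LATS1 -0.00617 and STK4 -0.00408 in the trend.

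Leaving out 1 library gave these ranges where a direction turned. At 1 h they were LATS1 -0.11 to 0.0675, LATS2 -0.0819 to 0.0953, AMOTL2 -0.0969 to 0.0365 and STK4 -0.12 to 0.0288. At 3-6 h they were LATS1 -0.0361 to 0.0617, AMOT -0.12 to 0.0395, AMOTL1 -0.14 to 0.0796, SAV1 -0.0611 to 0.0438, STK3 -0.13 to 0.0905 and STK4 -0.0601 to 0.0420 (trend -0.00459 to 0.0260, cage group 5 -0.0639 to 0.0370). At 24 h they were LATS1 -0.0139 to 0.0896, AMOTL1 -0.0379 to 0.12 and, at 100 mg/kg, AMOTL2 -0.23 to 0.0148 and AJUBA -0.0936 to 0.0349.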
